A study of Mus musculus with 8 samples.

Results

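The Cyp2c cytochromes are a family of cytochrome P450 enzymes encoded on mouse chromosome 19, most of them side by side. The list held 10 genes: Cyp2c29, Cyp2c37, Cyp2c38, Cyp2c39, Cyp2c40, Cyp2c44, Cyp2c50, Cyp2c54, Cyp2c55 and Cyp2c70. Every probe that the array's own gene name or a RefSeq accession assigned to a listed gene was taken, whatever its value. This gave 12 probes for 9 of the 10 genes, out of 41174 probes under 27597 gene names on the array. All 12 passed the filter on dim probes, as did 33335 probes under 22225 names in all. Cyp2c50 had no probe under its own name. Cyp2c44 is listed in the reference as Cyp2c23.

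RNA from the livers of ICR scid mice aged 8 weeks was hybridised to 8 two-colour Agilent 4x44k arrays, 2 for each of 4 comparisons. These mice lack mature T and B lymphocytes. Untreated males (10 mice) were set against untreated females (10 mice, although the series text gives another number for the females). Males given Adeno-Cux2, an adenovirus carrying the transcription factor Cux2, were set against males given the control virus Adeno-CMV, 5 days after treatment (12 and 13 mice) and 3 days after treatment (11 and 11 mice). Females given Adeno-Cux2 were set against females given Adeno-CMV at day 5 (8 and 7 mice). Both treated and control animals of these 3 comparisons had therefore received adenovirus. Each array held RNA pools of 3 to 7 mice, and the second array of a comparison held separate pools with the dyes reversed, so n is 2 arrays throughout. RNA came from whole liver, in which fewer cells of a type and less RNA per cell cannot be told apart. The female arrays carry a stated purpose that names males, but their title, source and sex label all give females.

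Cytochromes P450 of the Cyp2c family sit in the endoplasmic reticulum of hepatocytes, take electrons from the reductase Por, and oxidise drugs, steroids and fatty acids. Several convert arachidonic acid to epoxyeicosatrienoic acids, which soluble epoxide hydrolase (Ephx2) then breaks down. Many rodent Cyp2c genes differ between the sexes in liver under the pituitary's sex-specific pattern of growth hormone release, and Cux2 is a repressor expressed more in female than in male liver. Some members also respond to the drug-sensing nuclear receptors Car (Nr1i3) and Pxr (Nr1i2).

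The members were compared by the sequence just before their starts. These bases lie outside the transcript, so their likeness does not show what a probe read. RefSeq promoter sequences on GRCm38.p6 were found for 8 of the 10 genes. Over the 250 bases before the start, Cyp2c37 and Cyp2c50 were 84.3% identical, Cyp2c38 and Cyp2c39 71.0%, and Cyp2c29 was 68.8% identical to Cyp2c38 and 68.1% to Cyp2c39. The lowest pair, Cyp2c37 and Cyp2c40, was at 40.4%. The 120 bases just before the start are shown for 5 genes: the closest pair, the next closest pair, whose genes passed the test in all 4 comparisons, and Cyp2c55, which moved the opposite way to most of the family. Capitals mark matches to TATAAA, to ATTGAT (the core shared by HNF6 and Cux factors) and to CAAAGTNCA (an HNF4 motif), on either strand.
Cyp2c37: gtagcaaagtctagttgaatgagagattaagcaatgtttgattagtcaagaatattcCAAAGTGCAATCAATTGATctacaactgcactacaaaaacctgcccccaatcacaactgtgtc
Cyp2c50: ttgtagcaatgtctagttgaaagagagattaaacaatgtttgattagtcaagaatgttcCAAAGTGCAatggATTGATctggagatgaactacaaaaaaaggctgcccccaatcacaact
Cyp2c38: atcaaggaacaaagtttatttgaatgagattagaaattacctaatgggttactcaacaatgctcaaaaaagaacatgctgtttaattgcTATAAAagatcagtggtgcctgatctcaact
Cyp2c39: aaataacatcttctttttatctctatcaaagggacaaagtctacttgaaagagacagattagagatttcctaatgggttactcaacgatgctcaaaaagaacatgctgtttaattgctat
Cyp2c55: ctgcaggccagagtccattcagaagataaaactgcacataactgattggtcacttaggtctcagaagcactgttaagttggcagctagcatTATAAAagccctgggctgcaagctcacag
These windows are chr19:39992304-39992423 on the forward strand for Cyp2c37, chr19:40089559-40089678 on the forward strand for Cyp2c50, chr19:39463076-39463195 on the reverse strand for Cyp2c38, chr19:39510702-39510821 on the forward strand for Cyp2c39 and chr19:39006899-39007018 on the forward strand for Cyp2c55. Cyp2c39 has 2 starts in the table, of which the one with the higher coordinate was used.

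The Cyp2c37 and Cyp2c50 promoters each held CAAAGTNCA and ATTGAT within 63 bases of the start. In Cyp2c37 the core occurred 2 times, on opposite strands, and these matches run into each other and into the HNF4 match in the capitals. CAAAGTNCA was found in 4 of the 8 promoters (Cyp2c37, Cyp2c40, Cyp2c50 and Cyp2c70) and in 1.19% of 32851 mouse promoters of this length. ATTGAT was found in 2 of 8, against 6.72% of all promoters. TATAAA was found in 4 of 8 (Cyp2c29, Cyp2c38, Cyp2c55 and, on the opposite strand, Cyp2c70), against 12.4%. The Cyp2c39 window ends within the stretch where Cyp2c38 has its TATAAA, so a match running past the start used was not counted. TTCNNNGAA, the STAT5 motif, was in 0 of 8 windows and in 7.02% of all promoters. Since members share ancestry, their matches are not independent of one another.

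Of the 12 probes, 9 are listed in the array files for 1 RefSeq gene only. The brighter Cyp2c37 probe (chr19:40055260-40055319 on mm8) is listed in the array files for both Cyp2c37 and Cyp2c50, so the transcripts of these genes cannot be told apart there. The second Cyp2c37 probe (chr19:40065288-40065347 on mm8) is listed for Cyp2c37 alone. The brighter Cyp2c40 probe (chr19:39820643-39820702 on mm8) is listed for Cyp2c40, Cyp2c67 and Cyp2c68, and the second for Cyp2c40 and Cyp2c68. Every probe was well above background in all 16 channels, with no outlier spot, and 1 channel of the brighter Cyp2c40 probe, that of the untreated female replicate 2 pool, was saturated. Exon and UTR annotation on mm8 was not used here.

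Values below are log2 ratios of males over females or of Adeno-Cux2 over Adeno-CMV, given for replicate 1 and then replicate 2, and a value above 0 means more RNA in males or in the pools labelled Adeno-Cux2. A probe was called where the adjusted p of the limma test over all 33335 probes was under 0.05. Cux2 itself was read by 2 probes, both called in all 4 comparisons. The brighter gave −1.74 and −2.02 on the untreated arrays, 0.61 and 0.60 in males at day 5, and 0.39 and 0.58 in males at day 3. On the female arrays it gave −0.58 and −0.65, so Cux2 was lower, by 0.61 ± 0.09 (SE) on the log2 scale (adjusted p = 0.00434), in the pools labelled Adeno-Cux2. Whether these probes read the viral transcript is not known from the files, and the female pools are therefore named below by their labels. All 18 hepatocyte markers tested were well above background in every channel. Pancreatic enzyme genes were high on 3 single arrays, with a median log2 ratio over 17 genes of 3.46 on untreated replicate 2, 4.27 on female replicate 1 and 2.81 on male day 3 replicate 2, against values from −0.83 to −0.04 on their partner arrays. The Cyp2c counts without each of those arrays are given with each comparison. The model also fitted a dye term, the part of a log2 ratio that turned with the dyes. Where 1 array of a comparison is left out below, the dye term comes from the other comparisons and is taken out of the remaining array. The value given is thus not that array's own ratio. Cyp2c38 in males at day 5, by its brighter probe, gave −0.57 on replicate 2 but −0.43 in the fit without replicate 1.

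In untreated liver no Cyp2c gene was higher in males, and 6 of 9 were lower. Of all 33335 probes, 4.71% were called higher in males and 5.07% lower. The median log2 ratio of male over female over the 9 genes was −0.79, beside −0.00215 over all probes. Cyp2c38, Cyp2c39 and Cyp2c40, and Cyp2c37 by its own probe, had the lowest ratios.

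**Figure D1:**
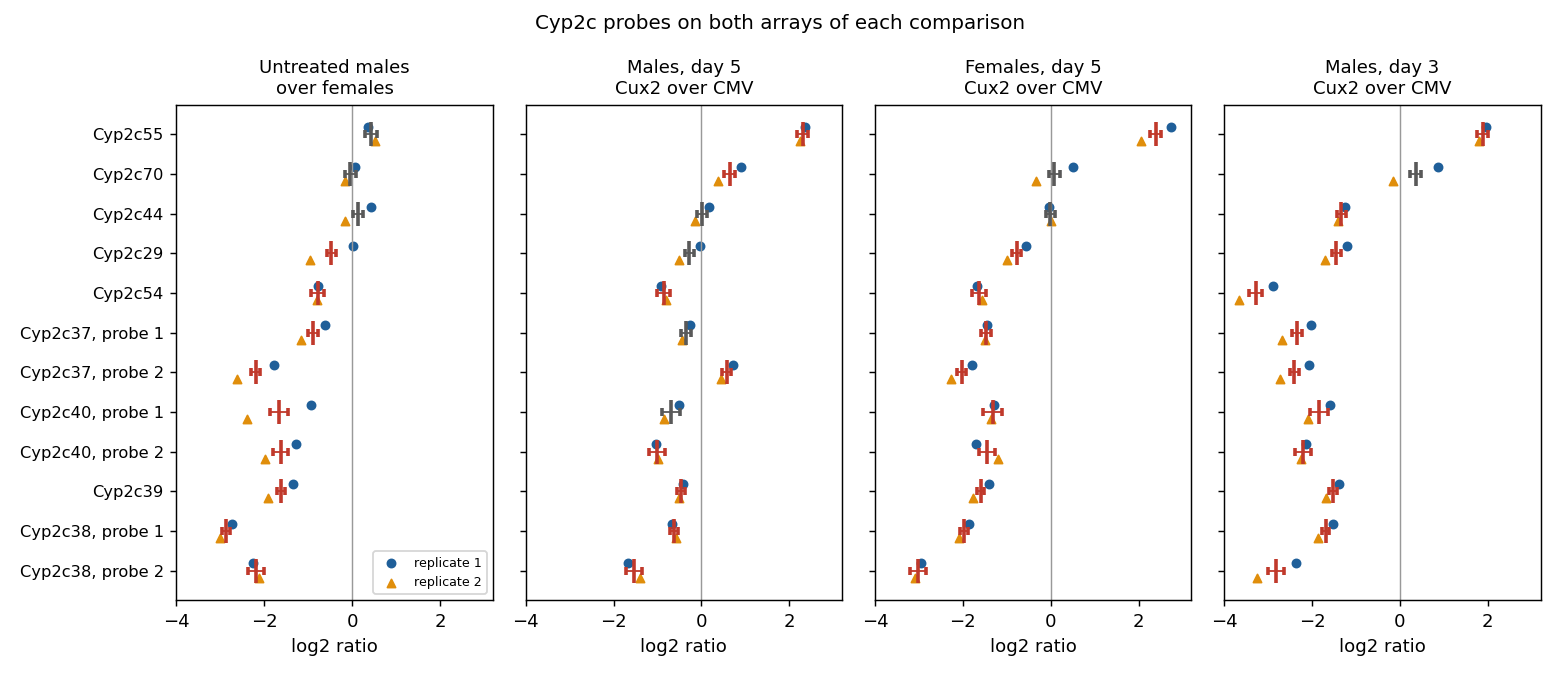
Log2 ratios (x axis) of the 12 Cyp2c probes (y axis) in the 4 comparisons, with replicate 1 as circles, replicate 2 as triangles, and the fitted value with its standard error as a vertical tick and bar, red where called at an adjusted p under 0.05 and grey elsewhere. Cyp2c55 is the single gene whose fitted ratio is at least 1.88 in all 3 treated comparisons, and the lower rows, from Cyp2c29 down, lie mostly below 0.

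Cyp2c38, an arachidonic acid epoxygenase, gave log2 ratios of −2.74 and −3.003 by its brighter probe and −2.27 and −2.11 by the second. Both probes were low in males on both arrays, at −2.87 ± 0.09 (SE; 7.32-fold lower, adjusted p = 2.63e-05) and −2.19 ± 0.18 (adjusted p = 0.000836). The Cyp2c37 probe listed for that gene alone gave −1.78 and −2.61 (−2.20 ± 0.10, 4.59-fold lower, adjusted p = 0.000122). The probe shared with Cyp2c50 gave −0.61 and −1.16 (−0.89 ± 0.11, adjusted p = 0.00498). The sex difference on the shared probe was thus smaller than on the specific one. Cyp2c39, which also hydroxylates retinoic acid, gave −1.34 and −1.91 (−1.62 ± 0.09, 3.08-fold lower, adjusted p = 0.000223). Cyp2c40, listed with its neighbours, gave −0.94 and −2.41 by the brighter probe (−1.67 ± 0.21, adjusted p = 0.00455) and −1.27 and −1.98 by the second (−1.63 ± 0.18, adjusted p = 0.00262). The female channel behind −2.41 was saturated, so that −2.41 and −1.67 give only the least size of the difference by this probe, and without this array it was at −1.10 (adjusted p = 0.00802). These 4 genes were below 0 on both arrays by every probe, although the arrays of Cyp2c40 lay far apart by the brighter one.

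The calls of the other lower genes were less firm. Cyp2c54, a close relative of Cyp2c37, gave −0.78 and −0.79 (−0.79 ± 0.15, adjusted p = 0.0247). Cyp2c29, among the brightest probes of the family, gave 0.0067 and −0.97 (−0.48 ± 0.10, adjusted p = 0.0333). Only replicate 2 was below 0 before the dye term, which was 0.30 for this probe. Without untreated replicate 2, the array with pancreatic transcripts, Cyp2c29 was at −0.23 (adjusted p = 0.128) and Cyp2c54 at −0.87 (adjusted p = 0.0665), leaving 4 genes called. Without replicate 1, Cyp2c54 was at −0.70 (adjusted p = 0.286) and the shared Cyp2c37 probe at −1.01 (adjusted p = 0.0514), also leaving 4. Leaving out a male day 5 array, which left these log2 ratios as they were, gave an adjusted p of 0.0764 for Cyp2c29 and 0.0535 for Cyp2c54, and leaving out a male day 3 array gave 0.0551 for Cyp2c29.

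Cyp2c55, Cyp2c44 and Cyp2c70 did not pass the test between untreated males and females. Cyp2c55 gave 0.35 and 0.51 (0.43 ± 0.13, 95% interval 0.12 to 0.74, adjusted p = 0.0862), and it was called, at an adjusted p of 0.0307, without either female array. Cyp2c44 gave 0.43 and −0.16 (95% interval −0.12 to 0.39). Cyp2c70, the enzyme that makes muricholic acids in mice, gave 0.072 and −0.17 (95% interval −0.35 to 0.25). The hepatocyte markers had a median of 0.24 on replicate 1 and −0.69 on replicate 2, with 1 of 18 called lower and 0 higher; their part in the differences was not tested.

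In males at day 5 the family split. The pools labelled Adeno-Cux2 had more Cyp2c55 and Cyp2c70 and less Cyp2c38, Cyp2c39 and Cyp2c54, while 4 genes did not pass the test. Of all probes, 12.0% were called higher and 4.78% lower, against 2 and 3 of the 9 genes. The gene median was −0.35, beside 0.00253 over all probes.

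Cyp2c55, known as an intestinal member that Car and Pxr ligands induce in liver, gave 2.36 and 2.25. The rise was 4.95-fold (2.31 ± 0.13, adjusted p = 9.59e-05), and both arrays lay close together. Of 13 intestine markers 2 were called higher and 0 lower in this comparison, and of 10 cholangiocyte markers 5 were higher and 0 lower, with medians of 0.11 and 0.43. Cyp2c70 gave 0.91 and 0.37 (0.64 ± 0.13, 1.56-fold higher, adjusted p = 0.0151). Its call was lost without replicate 1 (0.72, adjusted p = 0.157) and without replicate 2 (0.56, adjusted p = 0.278).

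Cyp2c38 gave −0.67 and −0.57 by the brighter probe (−0.62 ± 0.09, 1.54-fold lower, adjusted p = 0.00348) and −1.68 and −1.41 by the second (−1.54 ± 0.18, 2.92-fold lower, adjusted p = 0.00159). Both probes were below 0 on both arrays, and the second was the lower on each. Cyp2c39 gave −0.42 and −0.50 (−0.46 ± 0.09, adjusted p = 0.0133), and Cyp2c54 −0.92 and −0.80 (−0.86 ± 0.15, adjusted p = 0.00954). The values that follow, with 1 array left out, are those after the dye term was taken out. Without replicate 1 none of these falls was called: Cyp2c38 was at −0.43 (adjusted p = 0.109, or 0.0622 by the second probe), Cyp2c39 at −0.30 (adjusted p = 0.324) and Cyp2c54 at −0.69 (adjusted p = 0.23), leaving 1 gene called, Cyp2c55. Without replicate 2, Cyp2c39 (−0.63, adjusted p = 0.0563) and Cyp2c54 (−1.03, adjusted p = 0.0899) were lost, leaving 2.

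The probes of Cyp2c37 and Cyp2c40 did not give 1 answer at this time. The Cyp2c37 probe shared with Cyp2c50 gave −0.26 and −0.44 (−0.35 ± 0.11, adjusted p = 0.0836). The probe listed for Cyp2c37 alone gave 0.71 and 0.43 and was called higher (0.57 ± 0.10, 1.49-fold, adjusted p = 0.00871). The probes thus pointed in opposite directions on both arrays. The rise of the specific probe was not called without replicate 2 (0.38, adjusted p = 0.248) or without the dye term (adjusted p = 0.137). Cyp2c40 gave −0.51 and −0.86 by the brighter probe (−0.69 ± 0.21, adjusted p = 0.0688) and −1.04 and −0.99 by the second (−1.01 ± 0.18, adjusted p = 0.00885), a call lost without replicate 1 (adjusted p = 0.184) or replicate 2 (adjusted p = 0.132). Cyp2c29 gave −0.033 and −0.51 (95% interval −0.52 to −0.030, adjusted p = 0.129). Without either untreated array, Cyp2c29 (adjusted p = 0.0212) and Cyp2c40 (adjusted p = 0.00357) were called lower at the same log2 ratios.

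**Figure D2:**
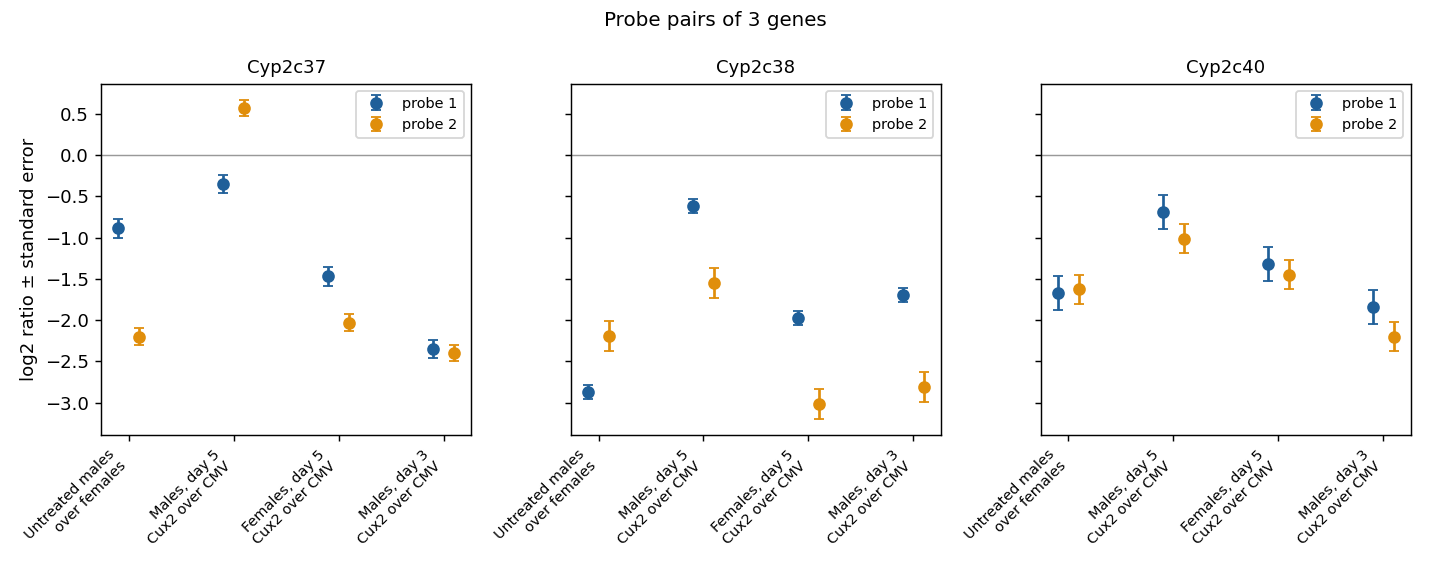
Fitted log2 ratios ± standard error (y axis) of both probes of Cyp2c37, Cyp2c38 and Cyp2c40 in the 4 comparisons (x axis), with the brighter probe in blue and the second in orange. The Cyp2c37 probes lie on opposite sides of 0 in males at day 5, at −0.35 and 0.57, and nearly together in males at day 3, at −2.35 and −2.40.

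Cyp2c44 was at 0.18 and −0.16 in males at day 5 (95% interval −0.24 to 0.27). Marker genes of other cells moved in this comparison: 17 of 18 macrophage markers, 11 of 13 neutrophil markers and 12 of 14 stellate markers were called higher, with medians of 1.30, 2.10 and 0.88. Of the hepatocyte markers 6 of 18 were called higher and 1 lower, with a median of 0.23. The part of these cells in the Cyp2c values was not tested.

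In females at day 5 the pools labelled Adeno-Cux2 showed a fall of 6 of 9 Cyp2c genes and a rise of 1. Of all probes, 6.20% were called lower and 11.2% higher. The gene median was −1.32, beside −0.00189 over all probes. These 6 were Cyp2c29, Cyp2c37, Cyp2c38, Cyp2c39, Cyp2c40 and Cyp2c54, and all 6 were also called lower in untreated males, a comparison of other mice. The same held for all 3 genes called lower in males at day 5 and for 6 of the 7 in males at day 3. The share of such overlaps over all probes was not computed, so these counts do not show whether the overlap is particular to the family.

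Cyp2c38 gave −1.87 and −2.09 by its brighter probe (−1.98 ± 0.09, 3.94-fold lower, adjusted p = 0.000167) and −2.94 and −3.09 by the second (−3.01 ± 0.18, 8.08-fold lower, adjusted p = 0.000247). Cyp2c37 gave −1.80 and −2.26 by the specific probe (−2.03 ± 0.10, 4.08-fold lower, adjusted p = 0.000172) and −1.44 and −1.50 by the shared one (−1.47 ± 0.11, adjusted p = 0.000506). Both genes were thus low on both arrays by either probe. Cyp2c54 gave −1.69 and −1.57 (−1.63 ± 0.15, 3.09-fold lower, adjusted p = 0.000914), and Cyp2c39 −1.41 and −1.78 (−1.59 ± 0.09, 3.02-fold lower, adjusted p = 0.000216). Cyp2c40 gave −1.28 and −1.37 by the brighter probe (−1.32 ± 0.21, adjusted p = 0.00636) and −1.70 and −1.20 by the second (−1.45 ± 0.18, adjusted p = 0.00241). Cyp2c29 gave −0.56 and −0.99, the smallest of these falls (−0.78 ± 0.10, 1.71-fold lower, adjusted p = 0.00329). Without female replicate 1, which carried the pancreatic transcripts, 5 genes were called: Cyp2c40 (−0.98, adjusted p = 0.12) and Cyp2c29 (−0.67, adjusted p = 0.074) were lost.

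Cyp2c55 gave 2.73 and 2.05 in females, a rise of 5.25-fold (2.39 ± 0.13, adjusted p = 0.000214), with replicate 1 the higher. Of the intestine markers 5 of 13 were called higher and 0 lower (median 0.32), and of the cholangiocyte markers 7 of 10 were higher and 0 lower (median 0.75); their part in the rise was not tested. Cyp2c44 was near 0 on both arrays, at −0.034 and 0.018 (95% interval −0.26 to 0.25). Cyp2c70 gave 0.50 and −0.34, values of opposite sign (95% interval −0.22 to 0.38, adjusted p = 0.745). Among markers, 12 of 18 macrophage, 11 of 13 neutrophil and 12 of 14 stellate genes were called higher, and 10 of 15 skeletal muscle genes lower, with a muscle median of −2.32. The hepatocyte median was 0.27, with 6 of 18 called higher and 1 lower; the part of these cells was not tested.

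The female and male responses at day 5 were compared directly, as the difference of their log2 ratios. Over all probes, 0.147% were called lower in females than in males and 0.0540% higher, and of the 9 genes 2 were called lower and 0 higher. Cyp2c38 differed by −1.36 ± 0.12 (adjusted p = 0.0259) and Cyp2c39 by −1.13 ± 0.13 (adjusted p = 0.0363), so both fell further in females. Leaving out any 1 of the 4 day 5 arrays ended both calls, with adjusted p from 0.0559 to 0.282, and Cyp2c39 was also lost without either male day 3 array (adjusted p = 0.0582). Cyp2c38 was at −1.47 ± 0.26 by its second probe (adjusted p = 0.0893). The probe listed for Cyp2c37 alone showed a larger difference, −2.60 ± 0.14 (adjusted p = 0.00605), which was lost without either male day 5 array (adjusted p = 0.0573 and 0.0872). Without background subtraction neither Cyp2c38 nor Cyp2c39 was called and that probe was at −2.57 (adjusted p = 0.0676), and on the scanner software's own log ratios it was at −2.64 (adjusted p = 0.167), again with neither of these genes called. Cyp2c55 differed by 0.086 ± 0.18 (95% interval −0.35 to 0.52, adjusted p = 0.951). The male and female arrays were on separate slides, and slide and sex cannot be told apart in these differences.

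**Figure D3:**
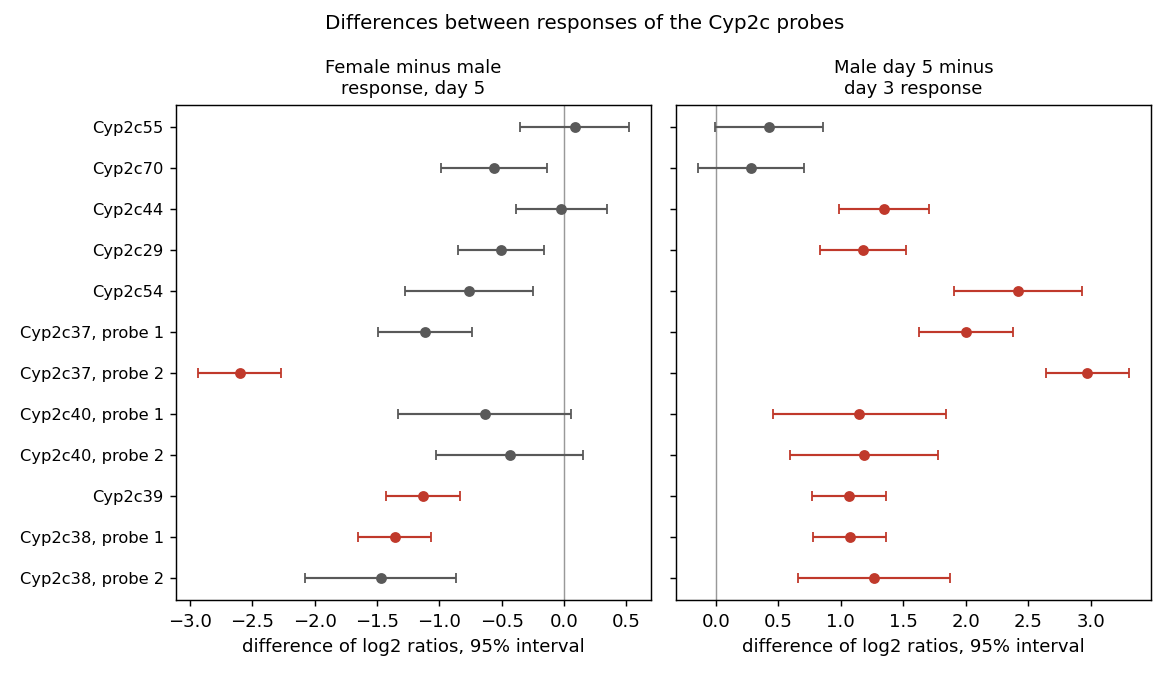
Difference of log2 ratios with its 95% interval (x axis) for the 12 Cyp2c probes (y axis), left for the female minus the male response at day 5 and right for the male day 5 minus the male day 3 response, red where called. On the left 3 probes are called, the lowest being the second Cyp2c37 probe at −2.60; on the right 10 of 12 are called, and the lowest of those is 1.07.

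The levels of single pools show the same genes without the ratio. Each level is the log2 intensity of 1 probe in 1 channel after scaling between arrays, so that levels may be read across pools and not across probes, and pools on separate slides carry any difference between slides. Cyp2c38, by its brighter probe, was highest in untreated females (14.63 ± 0.13, SD, n = 2 pools) and in Adeno-CMV females (14.21 ± 0.33), and lowest in Adeno-Cux2 males at day 3 (10.26 ± 0.07). Between these lay Adeno-CMV males at day 5 (12.73 ± 0.20), Adeno-Cux2 females (12.24 ± 0.49), Adeno-Cux2 males at day 5 (12.11 ± 0.27), Adeno-CMV males at day 3 (11.95 ± 0.17) and untreated males (11.76 ± 0.31). The last 4 overlap with their neighbours in this order. Adeno-Cux2 females, with pools at 12.58 and 11.89 by this probe, thus lay among the male groups. Adeno-CMV females, at 14.45 and 13.98, lay above every male pool. By the second probe Adeno-Cux2 females were lower, at 9.84 on average, with pools at 10.24 and 9.45. This mean was below those of untreated males (11.03) and Adeno-Cux2 males at day 5 (10.45). It was also below Adeno-CMV males at day 5 (11.99) and day 3 (10.56), but above Adeno-Cux2 males at day 3 (7.75). Those last pools gave signals of 595 and 522, over local backgrounds of 339 and 313.

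Errors of levels here are again SDs of the pools. For Cyp2c39 the Adeno-Cux2 females (15.46 ± 0.09), Adeno-Cux2 males at day 5 (15.45 ± 0.03) and untreated males (15.50 ± 0.48) had like levels, below Adeno-CMV females (17.05 ± 0.17) and untreated females (17.12 ± 0.08). Adeno-CMV males were at 15.91 ± 0.03 at day 5 and 15.55 ± 0.17 at day 3, and Adeno-Cux2 males at day 3 were lowest, at 14.02 ± 0.05. The specific Cyp2c37 probe was at 16.90 ± 0.03 in untreated and 15.46 ± 0.13 in Adeno-CMV females, and at 14.70 ± 0.56 in untreated and 13.39 ± 0.01 in Adeno-CMV males at day 5. In each sex the Adeno-CMV pools were thus below the untreated pools with no overlap, though no array compared them directly and the female groups were on separate slides. Cyp2c54 was likewise at 15.70 ± 0.13 in untreated females, 14.91 ± 0.14 in untreated males, and 13.42 ± 0.14, 13.49 ± 0.14 and 13.63 ± 0.42 in Adeno-CMV males at day 5, females at day 5 and males at day 3. Cyp2c55 went the other way, from 8.73 ± 0.20 and 9.16 ± 0.09 in untreated females and males to between 10.24 and 10.68 on average in the Adeno-CMV groups and between 12.33 and 13.07 in the Adeno-Cux2 groups. No pool of one of these 3 classes overlapped another class. Cyp2c29 group means ran from 15.87 in Adeno-Cux2 males at day 3 to 17.43 in untreated females, and those of Cyp2c70 from 16.76 in Adeno-CMV males at day 5 to 17.77 in Adeno-Cux2 males at day 3.

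**Figure D4:**
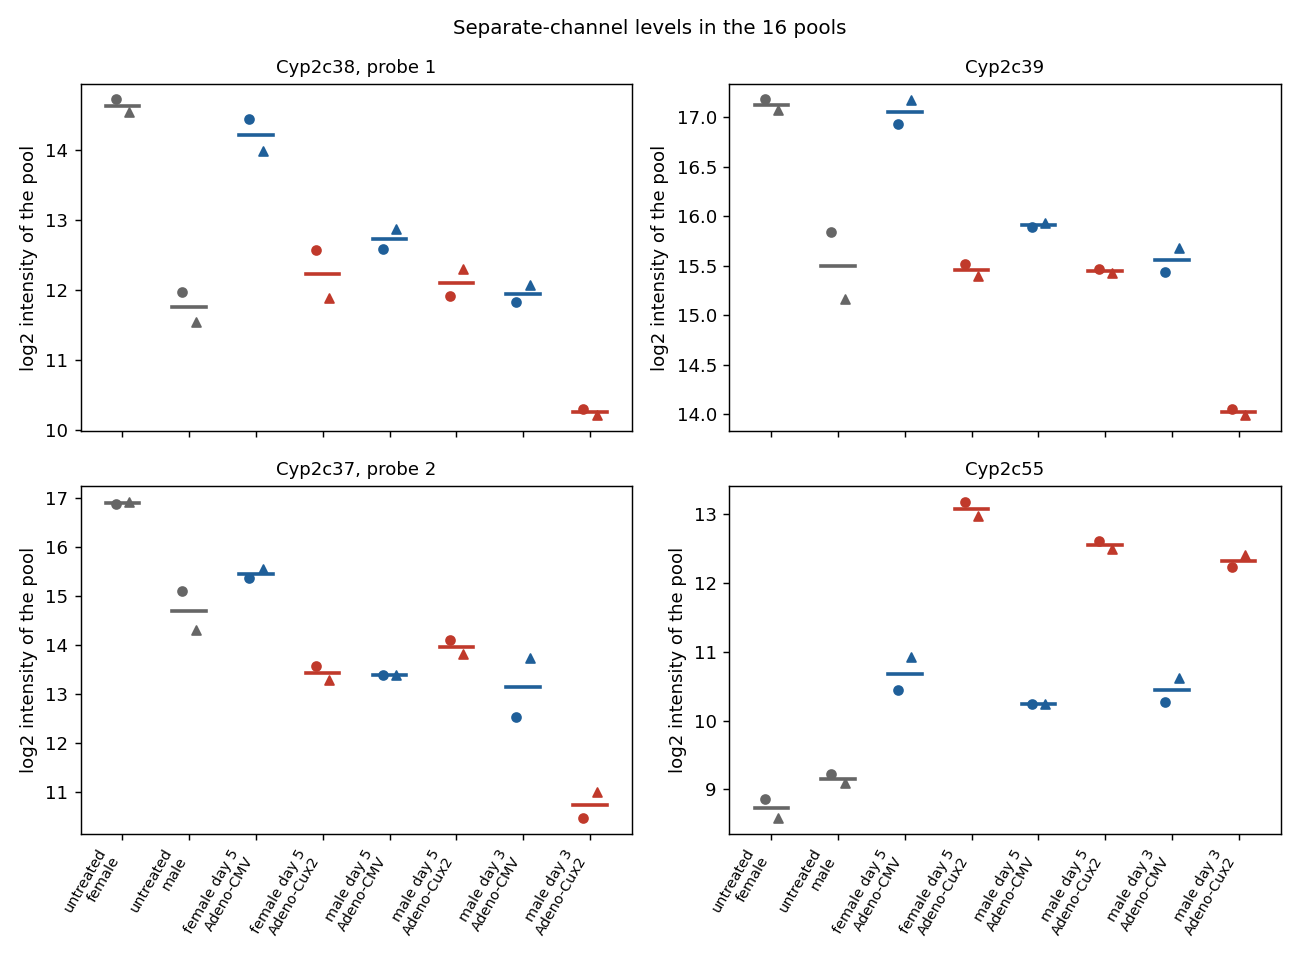
Separate-channel log2 intensity (y axis) of 4 probes in the 8 groups (x axis), each group with its replicate 1 pool as a circle, replicate 2 pool as a triangle and their mean as a bar, grey for untreated, blue for Adeno-CMV and red for Adeno-Cux2. For Cyp2c39, and for Cyp2c38 by its brighter probe, the only one shown, the red female pools lie at the level of male pools. For Cyp2c55 the lowest red pool is at 12.24 and the highest grey pool at 9.22.

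At day 3 the male pools labelled Adeno-Cux2 showed a fall of 7 of 9 genes and a rise of 1. This comparison also had the largest share of the array called, with 20.1% of all probes called lower and 22.8% higher. The gene median was −1.53, beside −0.00114 over all probes, and the median size of a log2 ratio over all probes was 0.20, against 0.11 in each of the other comparisons. Leaving out any 1 array left 8 or 9 genes called.

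Cyp2c54 had the largest change of the family here, at −2.90 and −3.67 (−3.28 ± 0.15, 9.73-fold lower, adjusted p = 1.99e-05). Cyp2c37 gave −2.07 and −2.73 by the specific probe (−2.40 ± 0.10, 5.28-fold lower, adjusted p = 1.56e-05) and −2.02 and −2.68 by the shared one (−2.35 ± 0.11, adjusted p = 2.15e-05). At day 3 the Cyp2c37 probes agreed on both arrays, unlike at day 5. Cyp2c38 gave −1.53 and −1.85 by the brighter probe (−1.69 ± 0.09, 3.23-fold lower, adjusted p = 2.59e-05) and −2.37 and −3.25 by the second (−2.81 ± 0.18, adjusted p = 5.13e-05). The second probe was dim in these Adeno-Cux2 pools, with signals of 595 and 522 over local backgrounds of 339 and 313. Its log2 ratio ran from −3.30 to −1.97 over the alternatives, and the call was kept in 15 of 15. Cyp2c40 gave −1.58 and −2.09 (−1.84 ± 0.21, adjusted p = 0.000499), and −2.14 and −2.26 by the second probe (−2.20 ± 0.18, adjusted p = 0.000116). Cyp2c39 gave −1.37 and −1.68 (−1.53 ± 0.09, 2.89-fold lower, adjusted p = 3.64e-05). All of these genes were far below 0 on both arrays, with replicate 2 the lower for each probe.

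Cyp2c29 and Cyp2c44 fell at day 3 as well. Cyp2c29 gave −1.20 and −1.70 (−1.45 ± 0.10, 2.73-fold lower, adjusted p = 7.27e-05). Cyp2c44, an epoxygenase also found in kidney and vessels, gave −1.26 and −1.41 (−1.33 ± 0.11, 2.52-fold lower, adjusted p = 0.000121). Cyp2c55 gave 1.97 and 1.80, a rise of 3.68-fold (1.88 ± 0.13, adjusted p = 6.58e-05). Of the intestine markers 7 of 13 were called higher and 0 lower (median 0.54, highest 3.03), and of the cholangiocyte markers 5 of 10 were higher and 1 lower; their part in this rise was not tested. Cyp2c70 gave 0.86 and −0.15 (0.36 ± 0.13, adjusted p = 0.059), with opposite signs on the arrays, and was called without either untreated array (adjusted p = 0.0199). The hepatocyte markers had a median of −0.27 at day 3, with 9 of 18 called lower and 2 higher, and 11 of 13 neutrophil and 10 of 14 stellate markers were called higher. Of 18 macrophage markers 7 were called higher and 6 lower. Their part in the falls was not tested. Without replicate 2, which carried pancreatic transcripts, 7 genes were lower and 1 higher.

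The male response changed between the times in 1 direction. As the day 5 minus the day 3 log2 ratio, 7 of 9 genes were called higher and 0 lower, beside 7.25% of all probes higher and 4.81% lower. The differences were 2.42 ± 0.22 for Cyp2c54 (adjusted p = 0.00286), 2.00 ± 0.16 for Cyp2c37 by the shared probe (adjusted p = 0.00218) and 1.35 ± 0.15 for Cyp2c44 (adjusted p = 0.00476). Cyp2c29 (1.18 ± 0.15), Cyp2c40 (1.15 ± 0.29), Cyp2c38 (1.07 ± 0.12) and Cyp2c39 (1.07 ± 0.13) followed. The specific Cyp2c37 probe had the largest difference of the 12, at 2.97 ± 0.14 (adjusted p = 0.000757). Cyp2c55 differed by 0.43 ± 0.18 (95% interval −0.0098 to 0.86, adjusted p = 0.192) and Cyp2c70 by 0.28 ± 0.18 (95% interval −0.14 to 0.71, adjusted p = 0.375). Without male day 5 replicate 1, 4 genes were called, and without replicate 2 only 1, Cyp2c37, remained. Cyp2c40, at an adjusted p of 0.0496, was not called without either day 3 array (adjusted p = 0.194 and 0.187), which left 6. It was called in 6 of 16 alternatives, and the use of its second probe was among the 6. It was also lost without background subtraction (adjusted p = 0.118), on software log ratios (0.126) and with median centring (0.0593). The same held with no filter (adjusted p = 0.0528), with 1 probe per gene (0.0522) and with no replicate block (0.123). Without the block Cyp2c29 was lost too (adjusted p = 0.0621), leaving 5 genes. By the second Cyp2c38 probe the difference was 1.27 ± 0.26 (adjusted p = 0.0239), 0.56 without background subtraction (adjusted p = 0.304), and 1.75 (adjusted p = 0.0137) and 0.78 (adjusted p = 0.0741) without day 3 replicate 1 or 2. The day 3 arrays were on the other slide from the male day 5 arrays, so slide and time cannot be told apart.

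Genes that work with or around the family were described from lists written by function. The shares of all probes called, beside which their counts stand, were 4.71% higher and 5.07% lower in untreated males, 11.2% and 6.20% for the female arrays, 12.0% and 4.78% for the male day 5 arrays, and 22.8% and 20.1% for the male day 3 arrays. Among 14 genes for P450 electron transfer and haem synthesis, 2 were lower and 1 higher in untreated males. Por, the reductase that supplies P450s with electrons, was lower there (−1.21, adjusted p = 0.00192) and higher in Adeno-Cux2 pools of males at day 5 (0.72, adjusted p = 0.00759) and females at day 5 (0.56, adjusted p = 0.0212). In males at day 3, 10 of the 14 fell and 3 rose, with Cyb5b, an outer mitochondrial cytochrome b5, at −1.20 (adjusted p = 0.000273) and Hmox1, which degrades haem, at 0.98 (adjusted p = 8.44e-05). At day 5, 3 rose and 1 fell in males, while females had 3 that rose and 0 that fell.

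Of 21 transcription factors known to act on Cyp2c genes, Cux2 itself among them, 4 were lower and 1 higher in untreated males, and Foxa1 was the higher one (0.81, adjusted p = 0.00137). At day 5, 4 rose and 2 fell in males, while females had 2 that rose and 3 that fell. Males at day 3 had 4 that rose and 10 that fell. Cux2 is 1 of the called genes in each of these comparisons, lower in untreated males and in the female pools and higher in males at both times. The list medians were 0.039, −0.089, −0.099 and −0.30 for untreated mice, males at day 5, females and males at day 3. Ahr, the dioxin receptor, rose in all 3 treated comparisons, by 1.19 (adjusted p = 0.000164), 0.74 (adjusted p = 0.00162) and 0.81 (adjusted p = 0.000298) for males at day 5, females and males at day 3. Cebpa, a hepatocyte factor, fell by 1.24 in males at day 3 (adjusted p = 0.000741).

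In the pathway of arachidonic acid epoxides and hydroxy acids, 24 of 28 listed genes were tested. Cyp4a12a, a male-biased fatty acid hydroxylase, was higher in untreated males (4.60, adjusted p = 0.000113) and fell at day 5 in males (−2.62, adjusted p = 0.000231) and females (−2.18, adjusted p = 0.000789), and in males at day 3 (−3.19, adjusted p = 4.43e-05). Cyp2j5, another epoxygenase, fell in females at day 5 (−1.25, adjusted p = 0.000172) and males at day 3 (−2.23, adjusted p = 1.04e-05). Untreated males had 6 higher and 4 lower. Of the treated comparisons, males at day 5 had 7 higher and 9 lower, females 6 higher and 9 lower, and males at day 3 had 7 higher and 11 lower.

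Of 17 bile acid genes, which act beside Cyp2c70, 15 fell and 1 rose in males at day 3. At day 5, 5 fell and 2 rose in males, and the female comparison had 8 that fell and 0 that rose. Untreated males had 3 lower and 4 higher. Cyp8b1, the sterol 12-alpha hydroxylase, was at −1.07 in males at day 5 (adjusted p = 0.0119), −1.97 in the female comparison (adjusted p = 0.0012) and −3.50 in males at day 3 (adjusted p = 3.49e-05), and fell in each. Cyp7b1 fell by 3.41 in males at day 3 (adjusted p = 1.04e-05). Cyp2c70 itself did not fall in any comparison. The family members Cyp2c65 and Cyp2c66, which have a probe each but are not among the 10, were not called in any comparison, with log2 ratios from −0.51 to 0.53.

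The genes nearest in pattern were found among 17265 genes outside the family, by the root mean square (RMS) difference of log2 ratios over the 8 arrays. Cyp2c29 was nearest to Cdo1, cysteine dioxygenase (RMS difference 0.252), and Camk1d (0.32). Cyp2c37, by the shared probe, was nearest to Pon1 (0.381) and Mat1a (0.388), Cyp2c54 to Hrg (0.552) and G6pc (0.571), and Cyp2c55 to Cxcl14 (0.413) and Rptoros (0.433). The transcript 9030619P08Rik was nearest or second nearest to Cyp2c38 (0.745), Cyp2c39 (0.314) and Cyp2c40 (0.474). The other neighbours were Rnf170 for Cyp2c38 (0.713), Ptgds for Cyp2c39 (0.488) and Lrtm1 for Cyp2c40 (0.489). These distances are descriptions over arrays that share a slide, a dye or a pool design, and no test was made of them.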

How the data were processed

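The members and the gene lists were chosen with earlier results of these data known. The deposited intensity values are each spot's median pixel brightness and its local background in green and red, with no normalization, per the file headers. The deposited log10 ratios (red over green, made by Agilent Feature Extraction 9.5.3.1 or 10.7.1.1, per the file headers) served as an alternative. The deposited series matrix holds the same log10 ratios with the sign turned on replicate 2. The deposited spot flags are scores of 0 or 1, per the file headers.

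From the median signals, normexp (offset 50) removed the background, and loess within each array gave log2 ratios, in limma 3.58.1 under R 4.3.3 with the data.table package (version 1.17.8). Control and outlier spots had weight 0. Of 41174 probes, 33335 were kept, each detected above background in 1 or more channels of both arrays in some comparison. One limma model of 8 arrays had 4 comparison coefficients and a dye term, which is also the replicate number. Residual degrees of freedom were 3, with 3.90 more from the prior. P-values were 2-sided and adjusted by Benjamini-Hochberg over all kept probes. Errors after ± are standard errors, except for levels of pools, where they are SDs. The standard errors come from the spread left after the dye term, moderated and shared over the 4 comparisons. They do not cover a pool difference common to same-numbered arrays, nor differences between mice. They can be smaller than the gap between 2 arrays, as for untreated Cyp2c29 (0.0067 and −0.97, standard error 0.10). Intervals of 95% are per probe and not adjusted for the number of probes. The code was tested on simulated data. Separate-channel levels used Aquantile scaling.

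The brightest probe stood for a gene, and every probe of a member was reported. For members called in at least 2 comparisons, the 2 genes of smallest RMS difference were named. For the other lists, at most the 2 called genes of largest change per comparison were named. Array signals, with green medians of 343 to 442, red medians of 430 to 512 and local backgrounds of 289 to 342.5, and the number of arrays limit the precision. Names came from RefSeq on GRCm38, and probe positions are on mm8, as in the files. The promoter windows ran 250 bases upstream of the start. The alternatives covered background, normalization, filter, dye term, variance prior, probe choice, slide and each array left out. With an array left out, the dye term stayed in the model. The 2 slides held 4 arrays each: untreated with male day 5 on one, male day 3 with female day 5 on another.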

Additional observations from a re-analysis of the deposited data

Results flagged for a closer look

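Each value here is a difference between the responses of separate groups of mice, tested as a contrast in the same limma model with adjustment over all probes. The groups of each contrast lay on separate slides, so slide and group cannot be told apart.

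The female response at day 5 minus the male response was −1.36 for Cyp2c38 (adjusted p = 0.0259), −1.13 for Cyp2c39 (adjusted p = 0.0363) and −2.60 for the second, gene-specific Cyp2c37 probe (adjusted p = 0.00605). The Cyp2c37 probe was at −2.03 in females and 0.57 in males, on either side of 0, while Cyp2c38 and Cyp2c39 were below 0 in both. Cux2 itself differed in the same contrast, by −1.22 (adjusted p = 0.0293) by its brighter probe, with a lower level in the female pools labelled Adeno-Cux2. Its second probe was at −0.64 and was not called (adjusted p = 0.0634).

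The male response at day 5 minus that at day 3 was called for 10 of 12 probes. It was 1.18 for Cyp2c29, 1.35 for Cyp2c44, 2.42 for Cyp2c54 and 1.07 for Cyp2c39. It was 2.00 for Cyp2c37 and 2.97 by its second probe, 1.07 for Cyp2c38 and 1.27 by its second probe, and 1.15 for Cyp2c40 and 1.19 by its second probe. The adjusted p ranged from 0.000757 for the second Cyp2c37 probe to 0.0496 for the brighter Cyp2c40 probe. The call was kept in 6 of 16 alternatives for Cyp2c40, and the use of its second probe was among the 6. It was kept in 8 of 14 by the second Cyp2c40 probe and 9 of 14 by the second Cyp2c38 probe.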

How the results depend on the processing

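The number of member genes called for the female minus male response at day 5, 2 by the brighter probes, was 0 without background subtraction and 0 on the software's log ratios. It was 1 with median centring and 1 with no replicate block (no dye term), and 0 to 2 with an array left out. In males at day 5 it was 5, 3 with no replicate block, and 1 to 7 with an array left out. For the male day 5 minus day 3 response it was 7, 5 with no replicate block, 6 without background subtraction, on software log ratios, with median centring, with no filter and with 1 probe per gene, and 1 to 7 with an array left out. With an array left out it was 4 to 7 in untreated mice, 5 to 7 in females at day 5 and 8 to 9 in males at day 3. The dye term coincides with the replicate number, so the block and the pairing cannot be told from the dye; between-array deviations of same-numbered arrays correlated at −0.07 to 0.30. The sign of Cyp2c37 in males at day 5 turned, to 0.57, with the second probe. Values near 0 that were not called also turned: with median centring, Cyp2c44 was −0.052 in males at day 5 and its female minus male difference 0.010. With an array left out, Cyp2c44 ranged from −0.090 to 0.36 in untreated mice, −0.040 to 0.067 in males and −0.21 to 0.20 in females at day 5, and −0.23 to 0.18 for its female minus male difference. Cyp2c70 ranged from −0.33 to 0.23 in untreated mice and −0.044 to 0.20 in females, and the female minus male difference of Cyp2c55 from −0.23 to 0.41. Of 1128 values of single probes under these settings, 1016 kept their direction and side of the threshold, 84 lost and 17 gained the call, and 11 changed sign. The cause of these changes was not tested. Many settings could not alter a log2 ratio, so its direction was fixed there and only the call could change. These were the filter, dye term, variance prior, 1 probe per gene, same-slide arrays alone, and leaving out an array of another comparison. With 2 pools per arm, differences between mice are not measured.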

Other observations

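The dye term of the model, the part of a log2 ratio that turned with the dyes and so with the replicate number, was above 0 for all 12 Cyp2c probes. It ranged from 0.03 for the second Cyp2c40 probe to 0.33 for Cyp2c70, with 0.30 for Cyp2c29. It cancels in the mean of both arrays and is left in full in a single array. Its share above 0 over all probes was not computed. The hepatocyte marker median was also higher on replicate 1 than on replicate 2 in every comparison, as with 0.24 and −0.69 in untreated mice.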
